A study of Mus musculus with 6 samples.

Results

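Imprinted genes are genes whose RNA is made mainly from the copy inherited from a single parent. Here 10 well known ones were followed in testicular cells enriched for spermatogonia, taken from Ddx20 knockout mice. They are H19, Igf2, Peg3, Meg3, Dlk1, Peg10, Plagl1, Grb10, Ndn and Snrpn, taken by symbol from the mouse GENCODE M21 annotation on mm10. All 10 were among the 22579 genes of the count table. Of these, 8 passed the filter on low counts and were tested together with 14766 genes in all, while Igf2 and Peg10 did not pass it. The rule takes them by name and uses no measured value, but they were chosen with earlier results of these data known.

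The study counted RNA in 6 libraries, of which 3 came from mice with a Ddx20 knockout and 3 from littermate controls. Each was made from roughly 1000 spermatogonia enriched by the surface protein THY1 and collected at day 4. The knockout is shortened to cKO in the labels, which name neither a Cre driver nor the cells that lost the gene, and give no other allele or treatment in either group. They also do not tie libraries to animals or litters, so the p-values reflect spread among libraries that may be technical. DDX20, also called Gemin3, is an RNA helicase of the SMN complex, which loads Sm proteins onto spliceosomal RNAs. SMART-seq2 amplifies whole cDNA by PCR without molecular identifiers, so intervals on counts cover counting error only.

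Imprinting rests on DNA methylation laid down in the germ line: primordial germ cells erase the inherited marks, and prospermatogonia then set the paternal ones, among them those of the H19-Igf2 and Dlk1-Meg3 domains. Members of the family are best known as regulators of fetal and placental growth, with growth-promoting genes often read from the paternal copy and growth-restraining ones from the maternal copy. Read counts do not separate parental copies, so the values are total RNA of each gene.

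Ddx20 itself checks the labels. It had 128, 168 and 119 reads in knockout libraries, against 668, 383 and 531 reads in control libraries, a log2 fold change of -1.89 ± 0.26 (SE; edgeR quasi-likelihood test, adjusted p = 0.0118; all fold changes are knockout over control). This call was lost when knockout 1 (adjusted p = 0.0554) or knockout 3 (0.062) was left out, or when knockout 1 and 2 were counted as 1 library (0.0541). Depth was 11656130 to 12497967 counted reads per knockout library and 8428871 to 11893287 per control library. Mitochondrially encoded genes took 19.8 to 20.1% of reads in knockout libraries and 14 to 16.9% in control libraries. A chi-square statistic per gene averaged 1.779 between knockout 1 and knockout 2, not far above the value of 1 given by sampling noise, against 11.96 to 104.2 for the other pairs. Counts are therefore also given with these libraries counted as 1. Over all genes tested, 713 were called at an adjusted p under 0.05 (4.83%), 300 of them higher in knockout libraries (2.03%) and 413 lower (2.80%), and the 3 knockout values did not overlap the 3 control values in 32.6% of genes. With library size as the only scaling, 226 genes were higher and 1152 lower and the median log2 fold change over all genes was -0.26, so changes are given relative to TMM scaling.

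None of the 8 tested members was called by edgeR. Ndn came closest, at a log2 fold change of 0.65 ± 0.18 and an adjusted p of 0.064, and Meg3 also had an unadjusted p under 0.05, so 2 of 8 did, against 24.1% of all genes tested. DESeq2 called 1 member, Ndn (adjusted p = 0.0273), and limma-voom called 3, Peg3 (0.00712), Grb10 (0.00997) and Ndn (0.0365). In edgeR 7 of the 8 fold changes were above 0, with a median of 0.43 on the log2 scale, against a median of 0.01 and 50.3% above 0 for all genes tested. The groups did not overlap for Meg3, Dlk1 and Ndn, or 37.5% of the 8, close to the 32.6% of all genes; all 3 were higher in knockout libraries, where the share over all genes was 16.8%. With knockout 1 and 2 counted as 1 library, no member was called by edgeR, DESeq2 or limma-voom.

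**Figure D1:**
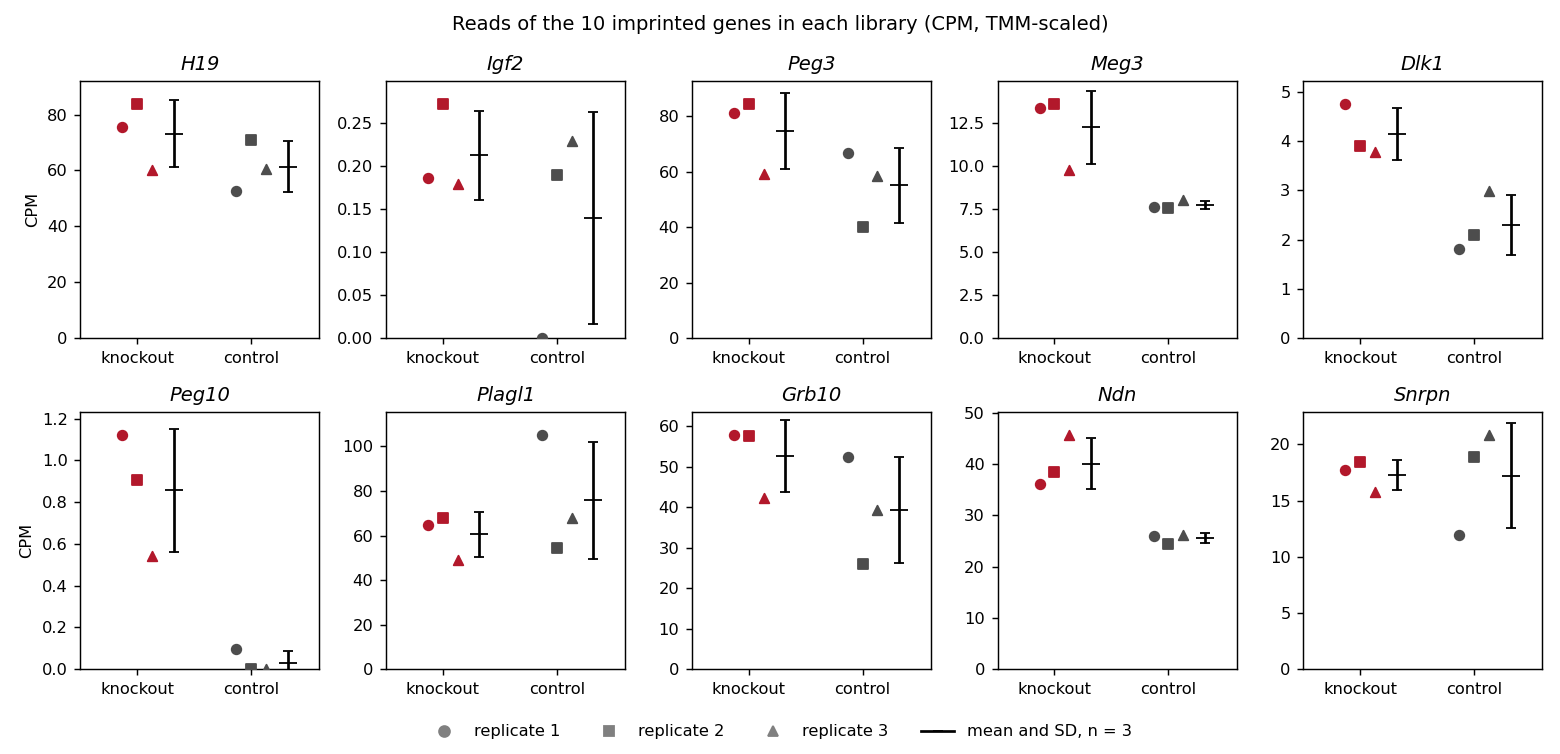
CPM (counts relative to library size, TMM-scaled) of each of the 10 genes in every library, each panel on its own axis from 0; red points are knockout libraries, grey points control libraries, and bars mean and SD of 3. Ndn (36.2 to 45.6 CPM in knockout against 24.4 to 26.2 in control), Meg3 (9.81 to 13.6 against 7.59 to 8.05), Dlk1 and Peg10 show no overlap between groups, while H19, Igf2, Peg3, Plagl1, Grb10 and Snrpn do overlap.

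The starts of 4 genes are shown because they bracket the findings: Mest, another imprinted gene, was called, Ndn and Meg3 were higher in every knockout library without being called, and Snrpn was level. Each run is RefSeq sequence on GRCm38.p6, from 250 bases before to 50 after a transcript start, read along the gene's strand. For a gene with several starts the run with most CpG is shown. Capitals mark TGCCGC, here always on the opposite strand and so written GCGGCA, the word that the zinc finger protein ZFP57 binds when it is methylated, by which it keeps imprints in the early embryo.
Mest, chr6:30737800-30738099, + strand: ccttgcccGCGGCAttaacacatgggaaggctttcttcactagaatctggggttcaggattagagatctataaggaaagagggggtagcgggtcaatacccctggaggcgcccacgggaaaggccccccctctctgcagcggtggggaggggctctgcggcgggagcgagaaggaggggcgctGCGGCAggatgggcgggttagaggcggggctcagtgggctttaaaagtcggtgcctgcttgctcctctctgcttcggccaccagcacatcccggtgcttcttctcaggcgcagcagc
Ndn, chr7:62348027-62348326, + strand: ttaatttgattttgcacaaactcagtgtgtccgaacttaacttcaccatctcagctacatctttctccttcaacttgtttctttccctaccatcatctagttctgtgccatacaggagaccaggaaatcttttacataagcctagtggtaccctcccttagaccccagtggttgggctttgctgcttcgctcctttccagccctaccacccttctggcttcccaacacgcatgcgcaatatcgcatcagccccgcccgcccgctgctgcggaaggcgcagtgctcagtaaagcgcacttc
Meg3, chr12:109540746-109541045, + strand: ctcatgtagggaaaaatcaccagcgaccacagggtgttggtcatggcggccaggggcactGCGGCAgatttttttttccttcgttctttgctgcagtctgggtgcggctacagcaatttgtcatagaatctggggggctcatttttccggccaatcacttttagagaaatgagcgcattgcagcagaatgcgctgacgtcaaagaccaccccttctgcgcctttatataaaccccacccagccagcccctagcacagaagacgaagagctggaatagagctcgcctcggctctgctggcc
Snrpn, chr7:60005150-60005449, - strand: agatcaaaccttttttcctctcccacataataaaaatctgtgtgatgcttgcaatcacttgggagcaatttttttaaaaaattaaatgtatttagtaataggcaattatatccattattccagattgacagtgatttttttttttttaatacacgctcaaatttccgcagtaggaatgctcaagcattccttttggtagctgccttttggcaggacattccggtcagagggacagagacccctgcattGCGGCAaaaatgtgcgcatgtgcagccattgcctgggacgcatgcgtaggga
The Mest run holds 17 CpG and 2 copies of the word, Meg3 holds 13 CpG and 1 copy, Ndn 11 CpG and no copy, and Snrpn 7 CpG and 1 copy. RefSeq gave 16 such runs for 8 of the 10 genes, of which 5 runs of 5 genes held the word on either strand (31.2%), against 11.6% of all 32851 runs. The run of Grb10 was the richest in CpG, with 45, more than 98.1% of all runs. A match describes letters in the window and does not show a bound or methylated site.

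H19 and Igf2 lie next to each other on chromosome 7 and share an imprint set in the male germ line. H19, a long noncoding RNA that hosts a microRNA and is read from the maternal copy (ENSMUSG00000000031, chromosome 7, 142575529 to 142578143, - strand), was the most abundant of the 10 per length. It had 75.6, 83.6 and 60.1 CPM (counts scaled to library size) in knockout libraries, against 52.7, 70.9 and 60.6 CPM in control libraries. The groups overlapped, knockout 3 being level with control 3, and the log2 fold change was 0.25 ± 0.18 (adjusted p = 0.432). Igf2, the fetal growth factor read from the paternal copy (chromosome 7, 142650766 to 142666816, - strand), had 2, 3 and 2 reads in knockout libraries, against 0, 2 and 3 reads in control libraries. These lie at or under 3 reads, the limit that a count of 0 allows (0.24 to 0.257 CPM in knockout and 0.252 to 0.356 CPM in control libraries without TMM scaling), so no fold is given. Of the 5723 exon bases of Igf2, 3596 (62.8%) are shared on the same strand with Gm49394, a predicted gene that reads through it and is absent from the count table. Every gene in that table had at least 1 read, so whether Gm49394 was counted is not known. Of 424 protein-coding genes that share over 50% of their exon bases in this way, 40.8% were in the table and their median was 0 reads over the 6 libraries, against 83.3% and 229 reads for the 20189 that share none. Predicted and read-through genes were not left out of these classes, which need not be alike in other ways. The part of this shared annotation in the low count of Igf2 was not tested.

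Dlk1 and Meg3 are neighbours on chromosome 12, in a further domain whose imprint is set in the male germ line. Meg3, a long noncoding RNA read from the maternal copy (ENSMUSG00000021268, chromosome 12, 109541001 to 109571726, + strand), had 13.4, 13.6 and 9.81 CPM in knockout libraries, against 7.64, 7.59 and 8.05 CPM in control libraries. Every knockout library was above every control library, and the controls lay within 1.06-fold of each other. The log2 fold change was 0.66 ± 0.28 (95% interval 0.04 to 1.28, adjusted p = 0.183). Meg3 shares 1499 of its 18089 exon bases (8.29%) with other annotated genes on either strand, none of them in the table. Dlk1, a membrane protein related to NOTCH ligands and read from the paternal copy (chromosome 12, 109452823 to 109463336, + strand), had 51, 43 and 42 reads in knockout libraries, against 19, 22 and 39 reads in control libraries, or 4.74, 3.90 and 3.78 CPM against 1.81, 2.09 and 2.99 CPM. The groups again did not overlap, but at this depth the log2 fold change of 0.84 ± 0.48 had an adjusted p of 0.315. Among 6 tested DLK and NOTCH genes the median log2 fold change was -0.62. Only Notch2, a receptor of the NOTCH pathway, was called (16.7% of the 6, against 4.83% of all genes). Notch2 fell to 14.8 ± 2.91 CPM in knockout libraries, against 32.2 ± 5.66 CPM in control libraries (SD, n = 3 each, edgeR adjusted p = 0.0287). The Notch2 call was lost without any 1 of the knockout libraries, without control 2 or control 3.

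Peg3, Ndn and Snrpn are read from the paternal copy and lie on chromosome 7. Peg3, a large zinc finger protein (chromosome 7, 6703892 to 6730431, - strand), had 81.0, 84.2 and 59.1 CPM in knockout libraries, against 66.7, 40.1 and 58.3 CPM in control libraries. Control 2 was the lowest of the 6 and knockout 3 lay below control 1, with a log2 fold change of 0.44 ± 0.21 (adjusted p = 0.239). Ndn encodes necdin, a protein of the MAGE family known for holding back cell division in neurons (ENSMUSG00000033585, chromosome 7, 62346569 to 62350262, + strand). It had 36.2, 38.4 and 45.6 CPM in knockout libraries, against 26.0, 24.4 and 26.2 CPM in control libraries. Every knockout library was above every control library, and the controls differed by 1.07-fold at most. Its SD over the control libraries on the log2 scale was 0.05, against a median of 0.28 for 1050 genes of like level. The fitted log2 fold change was 0.65 (95% interval 0.25 to 1.05).

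Snrpn (ENSMUSG00000102252, chromosome 7, 59982495 to 60140219, - strand) encodes SmN, a form of the Sm core protein SmB found mainly in neurons, and so is both an imprinted gene and a protein of the kind that the SMN complex handles. It had 17.7, 18.4 and 15.8 CPM in knockout libraries, against 11.9, 18.9 and 20.8 CPM in control libraries. The knockout values lay inside the range of the controls, and the log2 fold change was 0.01 ± 0.26, with a 95% interval of -0.57 to 0.58. That interval allows changes of either sign, and the sign was below 0 under 8 of 17 alternative settings. Of its 2159 exon bases, 589 (27.3%) are shared on the same strand with Gm38393, which was counted at 1.89 ± 0.584 CPM in knockout and 2.03 ± 1.87 CPM in control libraries (SD, n = 3 each). Its paralog Snrpb, which encodes SmB, was far more abundant, at 792 ± 40.7 CPM in knockout and 559 ± 203 CPM in control libraries (log2 fold change 0.50 ± 0.26, edgeR adjusted p = 0.271). Of the 8 Sm core genes, all tested, none was called by edgeR and none had an unadjusted p under 0.05, while all 8 fold changes were above 0, with a median of 0.18; Snrpf, for SmF, stood at 0.30 ± 0.18.

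Plagl1 and Grb10 act on growth, and Plagl1 was the exception in sign among the members. It encodes a zinc finger transcription factor known to slow the cell cycle, read from the paternal copy (chromosome 10, 13060504 to 13131694, + strand). It had 64.8, 67.8 and 48.8 CPM in knockout libraries, against 105, 54.3 and 68.0 CPM in control libraries. Control 1 stood apart from the other 5, and the log2 fold change was -0.32 ± 0.24 (adjusted p = 0.449). The other PLAG family genes were also below 0 without being called; the one with the smaller p, Plagl2, had a log2 fold change of -0.62 ± 0.33. Grb10 encodes an adaptor that dampens signalling from the insulin and IGF receptors and is read from the maternal copy in most tissues (chromosome 11, 11930508 to 12038683, - strand). It had 57.8, 57.7 and 42.4 CPM in knockout libraries, against 52.5, 26.1 and 39.4 CPM in control libraries. Knockout 1 and 2 were above all controls, knockout 3 was not, and the log2 fold change was 0.42 ± 0.25 (adjusted p = 0.337). Its relatives Grb14 and Grb7 stood at 1.11 ± 0.49 and -0.88 ± 0.42, and neither was called. Of 14 tested genes of the IGF pathway, 2 were called (14.3%, against 4.83% of all genes), and the list median was 0.10. Both called genes rose, the IGF-binding proteins Igfbp7 (log2 fold change 1.17 ± 0.29) and Igfbp6 (0.94 ± 0.21). Both calls were lost without any 1 of the knockout libraries, without control 2 or with library size as the only scaling, and that of Igfbp7 also without control 3.

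Peg10, a retrotransposon-derived gene needed in the placenta and read from the paternal copy (ENSMUSG00000092035, chromosome 6, 4747306 to 4760517, + strand), was too low to be tested. It had 12, 10 and 6 reads in knockout libraries, against 1, 0 and 0 reads in control libraries. All knockout libraries were above all controls, and summed over libraries 28 knockout reads stood against 1 control read, a ratio of 24.3 per counted read (95% exact interval 4.03 to 996, counting error only). No exact permutation test of 3 libraries against 3 can give a two-sided p below 0.1. Even in knockout libraries the gene stayed at 0.54 to 1.12 CPM. Its neighbour Sgce starts 98 bases away on the other strand and was among the imprinted genes called.

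Set per kilobase of exon, levels of the 10 genes spanned from 24.4 to 34 CPM per kb for H19 to 0.0315 to 0.0476 for Igf2 in knockout libraries. The next level in knockout libraries was Ndn (9.79 to 12.4), above Snrpn (7.34 to 8.53) without overlap. Snrpn overlapped Plagl1 (6.24 to 8.67), Plagl1 overlapped Grb10 (4.66 to 6.36), and Grb10 overlapped Peg3 (4.43 to 6.32). A gap then separated these from Dlk1 (0.668 to 0.838) and Meg3 (0.542 to 0.752), which overlapped, and from Peg10 (0.081 to 0.167) and Igf2, which stood apart from each other. In control libraries H19 was again highest (21.4 to 28.8), followed by Plagl1 (6.94 to 13.4), Snrpn (5.53 to 9.66) and Ndn (6.60 to 7.10), which overlapped one another. By mean, Ndn came next after H19 in knockout libraries and behind Plagl1 and Snrpn in control libraries. Grb10 (2.87 to 5.78) overlapped Snrpn but not Ndn or Plagl1, and overlapped Peg3 (3.01 to 5). Meg3 (0.420 to 0.445) and Dlk1 (0.321 to 0.528) overlapped further down. Igf2 (0 to 0.0402) and Peg10 (0 to 0.0143) were lowest.

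Within the knockout group, knockout 3 was the lowest library for every tested member but Ndn, for Dlk1 by a single read, and it was the lowest in 44.3% of all genes tested. H19, Peg3, Plagl1 and Grb10 had an SD over knockout libraries of 0.24 to 0.28 on the log2 scale, where genes of like level had a median SD of 0.12 to 0.13. The SDs of Meg3 (0.24 against 0.23 for genes of like level) and Ndn (0.17 against 0.16) were close to that of like genes, and those of Dlk1 (0.14 against 0.30) and Snrpn (0.11 against 0.18) were smaller. The gene whose profile over the 6 libraries was nearest to Grb10 was Cald1, the actin-binding caldesmon, at a root mean square distance of 0.0408 on centred log2(CPM + 1) values among 7716 candidates, followed by Pex13 (0.08) and Peg3 (0.0832). Cald1 was also the nearest to Peg3 (0.0717), followed by Osbpl1a (0.0749) and Syap1 (0.0825). Nearest to Plagl1 were Atf1 (0.052), Lpin2 (0.0537) and Fkbp15 (0.0654), and nearest to H19 were Surf2 (0.0617), Dph3 (0.0653) and Kctd13 (0.0756).

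The wider set of imprinted genes held calls where the members held none. From a list of 64 genes of the known mouse domains, the 10 included, 59 were in the table and 49 were tested; Rtl1, Rian, Snhg14, Snurf and Peg13 are not analysed here. Of the 49, 5 were called (10.2%, against 4.83% of all genes), all higher in knockout libraries: Mest, Sgce, Ddc, Slc38a4 and Dcn. The list was chosen with earlier results of these data known, so its shares are descriptive and do not test imprinted genes as a set. The median log2 fold change of the list was 0.42, with 37 above and 12 below 0, and without the members it was 0.40. Groups did not overlap for 20 of the 49 (40.8%, against 32.6% of all genes), 18 higher and 2 lower in knockout libraries. By the copy usually read, 4 of 23 tested paternally expressed genes were called (17.4%) and 1 of 26 maternally expressed genes (3.85%). The medians were 0.43 and 0.40, and the share called over all genes was 4.83%. Read counts do not separate parental copies, so which copy was read in these cells was not tested. None of the 5 was called by edgeR without knockout 1, without knockout 2, without knockout 3 or without control 2, 4 were called without control 1 (Dcn was lost, adjusted p = 0.0514), and 0 with knockout 1 and 2 counted as 1 library. With that pair as 1 library, DESeq2 and limma-voom each called 4, which were Mest, Sgce, Slc38a4 and Dcn.

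**Figure D2:**
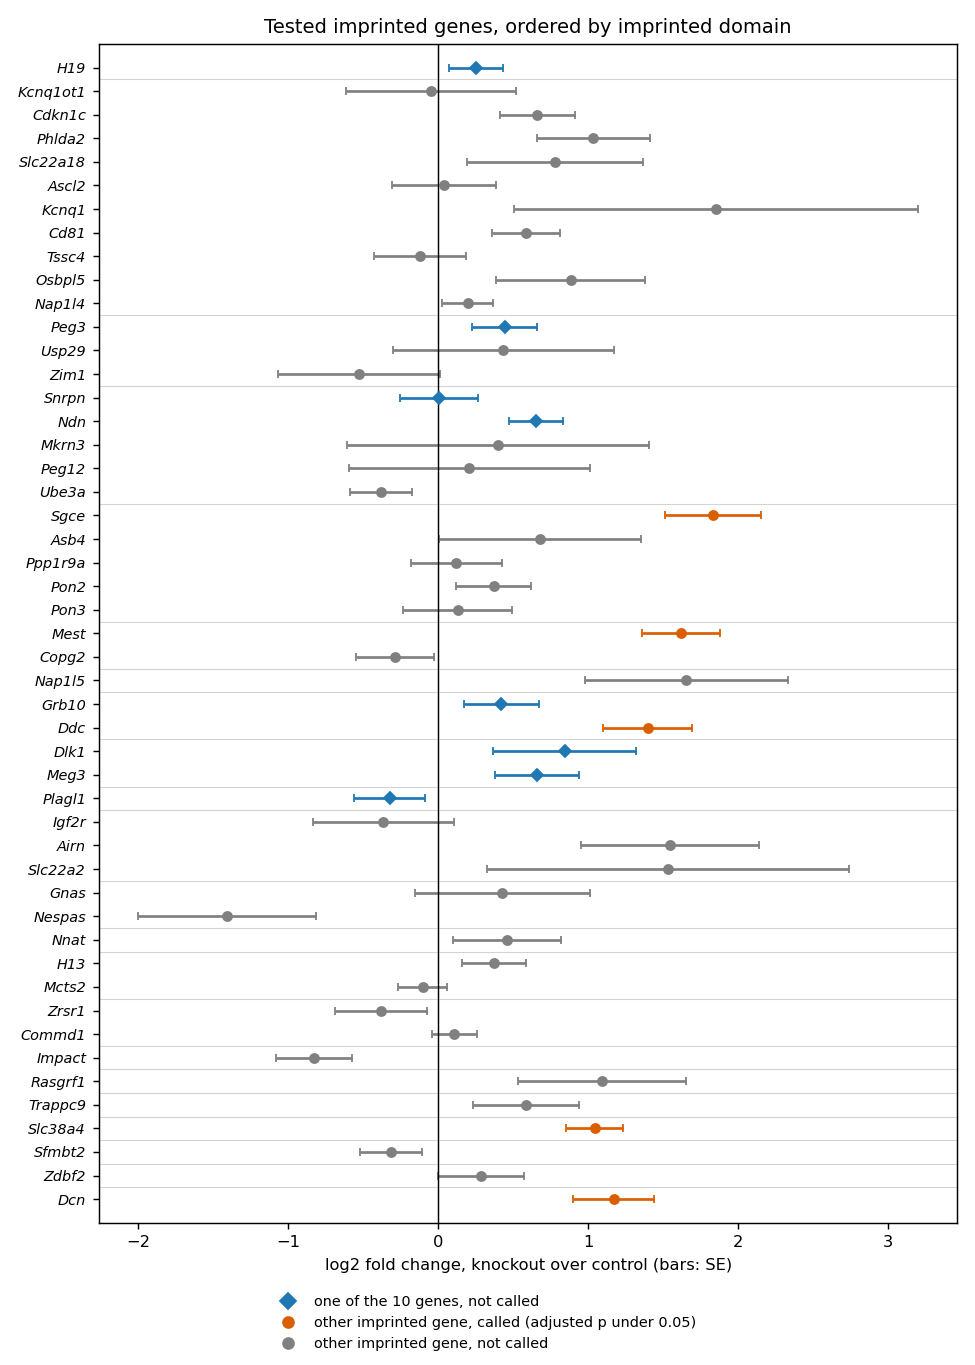
Log2 fold change (knockout over control) of the 49 tested imprinted genes, ordered by domain from top to bottom; bars are SE. The 8 tested members (blue) run from -0.32 for Plagl1 to 0.84 for Dlk1, and the 5 called genes (orange), from 1.04 for Slc38a4 to 1.83 for Sgce, all lie right of 0.

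Mest encodes an enzyme of the alpha/beta hydrolase fold, is read from the paternal copy and marks growing mesoderm (chromosome 6, 30723547 to 30748465, + strand). It had 79.6, 84.0 and 96.7 CPM in knockout libraries, against 19.9, 22.9 and 41.6 CPM in control libraries. The groups were far apart, and Mest rose 3.08-fold (log2 fold change 1.62 ± 0.26, edgeR adjusted p = 0.0145). Its exons share 912 of 3945 bases with Copg2 on the opposite strand, and with no strand setting known those reads may belong to either; Copg2 was at 12 ± 2.28 CPM in knockout and 14.7 ± 1.46 CPM in control libraries (SD, n = 3 each). Sgce, epsilon-sarcoglycan of the muscle membrane complex and paternally read (chromosome 6, 4674350 to 4747207, - strand), had 16.3, 18.0 and 26.0 CPM in knockout libraries, against 6.21, 3.80 and 6.82 CPM in control libraries. Every knockout library was above every control, and Sgce rose 3.57-fold (log2 fold change 1.83 ± 0.32, edgeR adjusted p = 0.0194).

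Slc38a4, an amino acid transporter of placenta and liver, had 57.3, 60.6 and 47.9 CPM in knockout libraries, against 31.5, 23.9 and 25.1 CPM in control libraries. It rose 2.06-fold (log2 fold change 1.04 ± 0.19, edgeR adjusted p = 0.0205). Ddc, the enzyme that makes dopamine and serotonin and a neighbour of Grb10, had 12.6, 14.2 and 13 CPM in knockout libraries, against 6.02, 4.84 and 4.29 CPM in control libraries. It rose 2.63-fold (log2 fold change 1.40 ± 0.30, edgeR adjusted p = 0.0303), next to a Grb10 that was not called. Ddc (adjusted p = 0.0598) and Slc38a4 (0.0731) were not called when libraries were scaled by size alone. Dcn encodes decorin, a matrix proteoglycan of connective tissue that is imprinted in the placenta, where the maternal copy is read. It had 629, 635 and 700 CPM in knockout libraries, against 204, 229 and 438 CPM in control libraries, and rose 2.25-fold (log2 fold change 1.17 ± 0.27, edgeR adjusted p = 0.0383). It was the most abundant of the listed genes and is itself a marker of fibroblasts.

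The uncalled genes of the wider list at 10 CPM or more lay on both sides of 0. In the Kcnq1 domain on chromosome 7, 10 genes were tested and none was called by edgeR, 3 had an unadjusted p under 0.05, where 24.1% of all genes did, and the groups did not overlap for 5, all higher in knockout libraries, where 16.8% of all genes did so. Cdkn1c, the growth-restraining cell cycle inhibitor p57 of that domain, was at 22.9 ± 1.61 CPM in knockout and 14.5 ± 3.98 CPM in control libraries (SD, n = 3 each; log2 fold change 0.66 ± 0.25, edgeR adjusted p = 0.144). Cd81, a tetraspanin of the same domain, was at 197 ± 4.25 CPM in knockout and 132 ± 48.4 CPM in control libraries (0.58 ± 0.23, edgeR adjusted p = 0.152), and was called when control 3 was left out (0.0297). Impact, a regulator of the GCN2 kinase, stood furthest below 0 of these genes, at 27.8 ± 3.67 CPM in knockout and 49.4 ± 18.4 CPM in control libraries, without overlap (-0.83 ± 0.25, edgeR adjusted p = 0.086). It was called lower with DESeq2 (adjusted p = 0.0363), limma-voom (0.0162), library size as the only scaling (0.0397) and no filter on low counts (0.0486), and its adjusted p over all alternatives ranged from 0.0162 to 0.309. Further genes above 0 were Trappc9 (0.58), H13 (0.37), Pon2 (0.37), Zdbf2 (0.28), Nap1l4 (0.19), Pon3 (0.13), Ppp1r9a (0.12), Commd1 (0.11) and Ascl2 (0.04). Below 0 were Zrsr1 (-0.38), Ube3a (-0.38), Igf2r (-0.37), Sfmbt2 (-0.31), Copg2 (-0.29) and Mcts2 (-0.11).

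Factors that set or keep imprints were mixed. Of 15 tested, 2 were called (13.3%, against 4.83% of all genes). Uhrf1, which brings the maintenance methyltransferase to replicated DNA, fell, and Dppa3, also called Stella, which shields methylation in the early embryo, was higher. The list median was -0.10. Groups did not overlap for 8 of the 15 (53.3%, against 32.6% of all genes), of which 3 were higher, Dppa3 among them, and 5 lower in knockout libraries. Dppa3 passed the filter on low counts only through the knockout libraries, so it had to differ to be tested, and its call is no support. Dppa3 had 31, 30 and 25 reads in knockout libraries, against 0, 2 and 0 reads in control libraries, a ratio of 37.4 per counted read (95% exact interval 10 to 314, counting error only; edgeR adjusted p = 0.0359). Uhrf1 was at 95.5 ± 11.9 CPM in knockout and 163 ± 32.6 CPM in control libraries (SD, n = 3 each; log2 fold change -0.77 ± 0.18, edgeR adjusted p = 0.0414). Both calls were lost without any 1 of the knockout libraries or without control 2, that of Dppa3 also without control 3 and that of Uhrf1 also without control 1.

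Several imprinted genes are known to be high in somatic cells of the perinatal gonad, so markers of those cells are set beside them. The 14 germ cell markers summed to 5220 to 5720 CPM in knockout and 4440 to 5420 CPM in control libraries, most of it from Dazl, with 103035 reads over the knockout and 93553 over the control libraries. All 14 were tested, with a median log2 fold change of -0.60 and 10 below 0. Of these 14, 5 were called (35.7%, against 4.83% of all genes): Mael rose, and Tex14, Gfra1, Ret and Etv5 fell. The groups did not overlap for 11 (78.6%, against 32.6% of all genes), of which 9 were lower in knockout libraries. The 9 Sertoli cell markers summed to 146 to 172 CPM in knockout and 54.8 to 73.0 CPM in control libraries. Clu and Inha made up most of each sum. Of 7 tested, Clu, Inha and Cldn11 were called higher (42.9%, against 4.83% of all genes). Sox9 was below 0 (log2 fold change -0.68 ± 0.51). Cldn11 passed the filter on low counts only through the knockout libraries, as Dppa3 did, so its call is no support. Cldn11 had 54, 37 and 30 reads there, against 6, 2 and 4 reads in control libraries. Amh had 4 reads over the knockout and 3 over the control libraries. The 6 peritubular myoid markers summed to 163 to 233 CPM in knockout and 64.5 to 80.7 CPM in control libraries, mostly from Acta2. Acta2 and Actg2 were called higher of 5 tested (40%, against 4.83% of all genes). Myh11 stood at a log2 fold change of 0.16 ± 0.82, and Tagln had 6 reads over the knockout and 7 over the control libraries. Stromal markers without Dcn summed to 878 to 1100 CPM in knockout and 550 to 953 CPM in control libraries. Of the 8 tested, Lum was called higher, where 4.83% of all genes were called. Their fold changes were above 0 for 6 and below 0 for 2. These 2 were Fbln1 (log2 fold change -0.61 ± 0.20) and Pdgfra (-0.26 ± 0.21), and neither was called. The groups did not overlap for 3 of the 8, of which 2 were higher and 1, Fbln1, lower in knockout libraries. T lymphocyte markers summed to 52.6 to 70.9 CPM in knockout and 25.6 to 32.9 CPM in control libraries. Cd3g and Lck were called higher of 7 (28.6%, against 4.83% of all genes), while Cd8a was below 0 (log2 fold change -0.74 ± 1.12). No Leydig, endothelial, macrophage or erythroid marker was called by edgeR, of 7, 7, 7 and 4 tested. An unadjusted p under 0.05 was found for 2, 1, 2 and 1 of them, where 24.1% of all genes tested had one. The 2 Leydig markers with such a p moved in opposite directions. Fold changes above 0 numbered 4, 6, 5 and 2 in these lists. Their sums were 48.7 to 68.1, 82.4 to 95.7, 930 to 1170 and 7.44 to 9.48 CPM in knockout libraries, against 35.7 to 68.5, 62.7 to 76.4, 548 to 1000 and 3.92 to 22.6 CPM in control libraries. All these marker calls were lost without knockout 3, all but that of Clu without knockout 1, and all but those of Clu and Acta2 without knockout 2. Those of Cldn11, Cd3g, Lck and the germ cell genes were also lost without control 2, those of Cldn11, Lck, Mael, Etv5 and Tex14 without control 3, and that of Lck without control 1. Every listed marker had reads in at least 4 of the 6 libraries. The part of such cells in the higher values of Mest, Sgce, Ddc, Slc38a4, Dcn, Ndn, Meg3, Dlk1 and Peg10 was not tested, and in bulk libraries more cells of a type and more RNA per cell cannot be told apart.

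**Figure D3:**
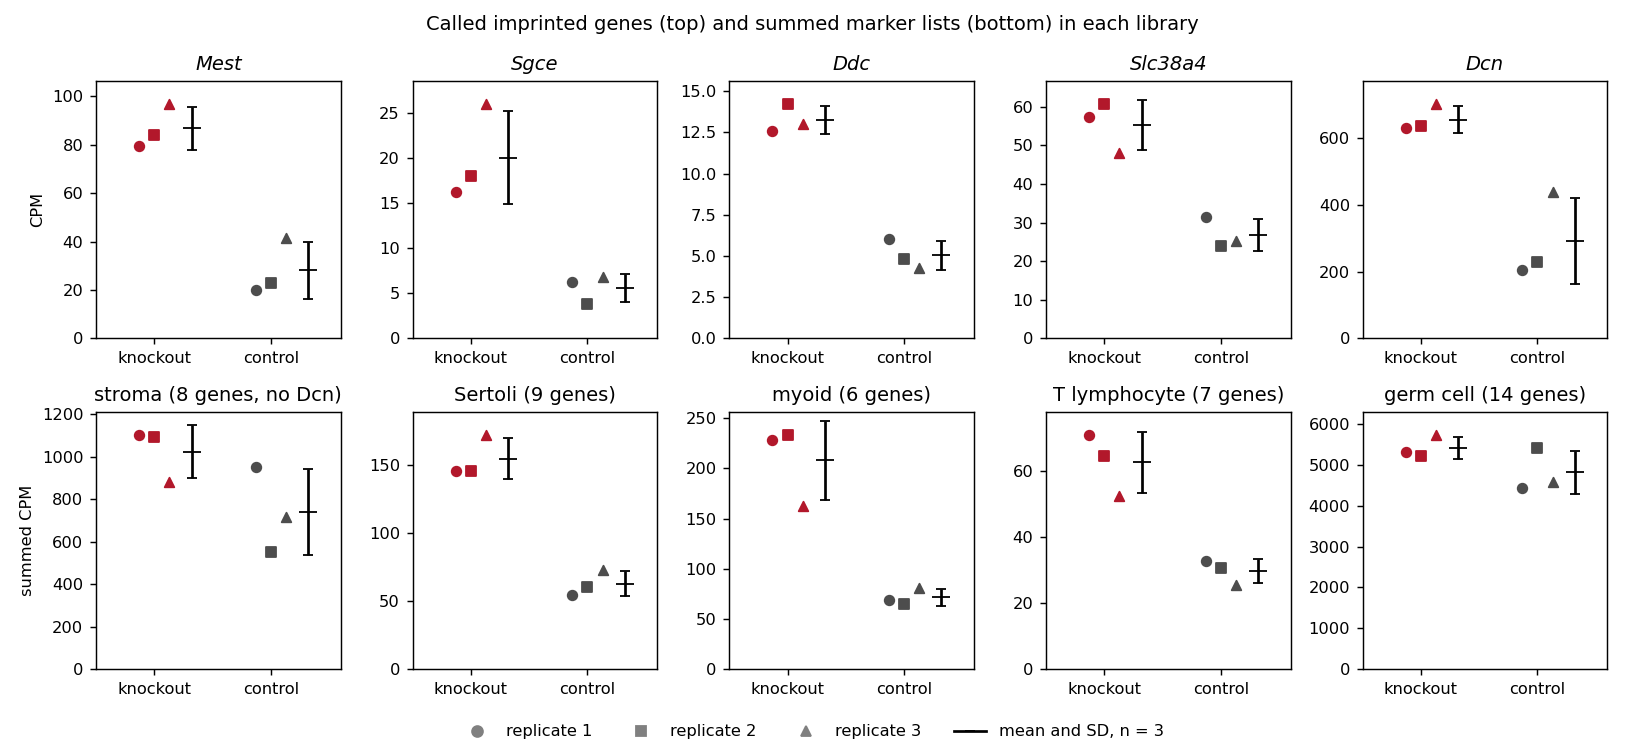
CPM of the 5 called imprinted genes (top) and summed CPM of 5 marker lists (bottom) in every library, axes from 0; red points are knockout, grey points control, bars mean and SD of 3. None of the 5 genes overlaps between groups. Sertoli (146 to 172 against 54.8 to 73.0), myoid (163 to 233 against 64.5 to 80.7) and T lymphocyte sums separate the groups. Clu and Inha make up most of the Sertoli sums, Acta2 most of the myoid sums and Dazl most of the germ cell sums. Stromal sums without Dcn and germ cell sums overlap. Gene by gene, 11 of the 14 germ cell markers separate the groups (78.6%, against 32.6% of all genes).

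The sign of the members' fold changes held under most other settings, with exceptions in Snrpn and Plagl1. Over 17 alternatives, H19 ranged from 0.01 to 0.38 on the log2 scale, Peg3 from 0.15 to 0.74, Meg3 from 0.40 to 0.79, Grb10 from 0.12 to 0.78 and Ndn from 0.38 to 0.72. Dlk1 ranged from 0.59 to 1.08 over 16. Plagl1 ranged from -0.63 to 0.03, above 0 with limma-voom alone, and Snrpn from -0.23 to 0.16. The adjusted p of Ndn ranged from 0.0273 to 0.299 and that of Meg3 from 0.0698 to 0.54.

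**Figure D4:**
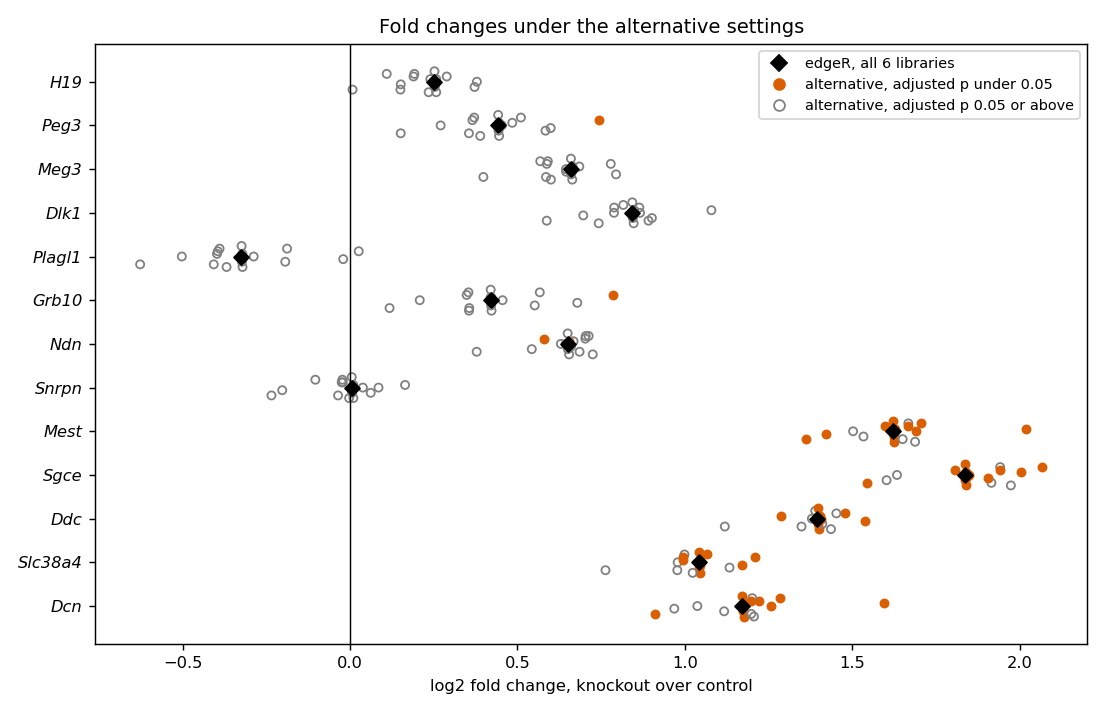
Log2 fold change (knockout over control) of the 8 tested members and the 5 called imprinted genes with edgeR on all 6 libraries (black diamonds) and under each alternative setting (circles; orange where the adjusted p was under 0.05). The 5 called genes stayed at 0.76 or above, and Snrpn lay on both sides of 0.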

How the data were processed

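The authors deposited a table of raw read counts, 1 row per Ensembl gene and 1 column per library, with a sum and a mean column that entered no test. Libraries were read as pairs of 150 bases, per the labels' protocols. Per the submitters' processing notes, the reads were processed on mm10 with edgeR, DESeq2, StringTie 2.1.7, STAR 2.7.5c and Trimmomatic 0.39, whose roles are not stated. Which counter, annotation release, strand setting and filter were used is not given in the sources used here. Names and positions came from GENCODE M21 (22562 of 22579 identifiers matched). CPM are these deposited counts scaled to TMM-adjusted library size, given as mean ± SD over 3 libraries, and CPM per kb divide by the union of exons.

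Knockout was compared with control over all genes in R 4.3.3 by the edgeR 4.0.16 quasi-likelihood test (robust dispersion, TMM, filterByExpr, genotype as the only term), with Benjamini-Hochberg adjustment and calls under 0.05. All p-values are two-sided. The SE of a log2 fold change was taken as its size divided by the root of F. The count of 0 was given a floor of 3 reads, and ratios of low counts have exact 95% intervals. The test was also run on simulated counts, drawn independently for each library from control means at a single dispersion. Those draws did not mimic the closeness of knockout 1 and 2. Alternatives were other scalings and filters, the replicate number as a block, DESeq2 1.42.0, limma-voom (limma 3.58.1) with quality weights, each library left out, mitochondrial genes left out, and knockout 1 and 2 averaged as 1 library. DESeq2 and limma-voom on that averaged pair were chosen after seeing the data.

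Named genes are the 10 members, wider-list genes called or at a mean of 10 CPM or more in either group, up to 4 called genes with the smallest p of each other list (or up to 2 with the smallest p where none was called, left out here for marker lists), Ddx20, and the 3 genes nearest in profile to each of the 4 most abundant members. Amh, Cd8a, Dazl, Fbln1, Gm38393, Myh11, Pdgfra, Sox9 and Tagln were named after their values were seen. The members and lists were chosen with earlier results of these data known.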

Additional observations from a re-analysis of the deposited data

How the results depend on the processing

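Depth and 3 libraries a group limit the lowest members: Igf2 and Peg10 could not be tested, and Dlk1 rests on 42 to 51 reads per knockout and 19 to 39 per control library. The count of genes called was 713 with edgeR, 1378 with library size alone, 1641 with DESeq2, 2765 with limma-voom, and, with knockout 1 and 2 as 1 library, 1 with edgeR, 465 with DESeq2 and 408 with limma-voom; leaving out 1 library gave 3 to 839. The count was 706 with DESeq2 size factors, 959 without the filter, 722 with a filter of 1 CPM in 3 libraries and 716 without mitochondrial genes. Members called were 0 except with DESeq2 (1) and limma-voom (3), leave-one-out giving 0 throughout. Wider-list genes called were 5, against 11 with limma-voom, 0 with the pair as 1 library by edgeR, and 0 to 6 when 1 library was left out. With the replicate number as a block, 683 genes, 0 members and 5 wider-list genes were called. Over all genes tested, each library's deviations from its own group mean were correlated between knockout and control libraries. These deviations had correlations of 0.00757 to 0.0277 for same-numbered libraries, against -0.0352 to 0.0201 for other pairs. Not every library was closest to its own number. Pairing by litter cannot be read from the labels or from these values. Dppa3, Cldn11, Mael, Gfra1 and Ret were not called in the block fit. With the pair as 1 library, edgeR called neither Ddx20 nor any gene named from another list.

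Signs turned only for values that were not called. Library size alone gave Snrpn -0.23, Ascl2 -0.21, Nap1l4 -0.092, Ppp1r9a -0.18, Pon3 -0.085 and Commd1 -0.15, and limma-voom gave Plagl1 0.026, Snrpn -0.021, Pon3 -0.28 and Igf2r 0.23. The pair as 1 library gave Snrpn -0.023 and Ascl2 -0.11 with edgeR, Snrpn -0.025 and Ascl2 -0.11 with DESeq2, and Snrpn -0.10, Ascl2 -0.18 and Igf2r 0.016 with limma-voom. Leaving out 1 library gave Snrpn -0.20 to 0.16, Ascl2 -0.19 to 0.29, Ppp1r9a -0.092 to 0.35, Pon3 -0.18 to 0.52, Igf2r -0.79 to 0.31, Zrsr1 -0.56 to 0.059 and Mcts2 -0.16 to 0.0049. The cause of these shifts was not tested. Of 135 alternative values for members 122 kept both sign and side of the threshold, and of 389 for the other imprinted genes named 332 did.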
